A study of Mus musculus with 6 samples.

Results

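The genes described here encode the enzymes that place and remove methyl groups on histone lysines. They were chosen by symbol: every gene beginning with Kmt, Kdm or Setd, together with Ezh1, Ezh2, Eed, Suz12, Dot1l, Ehmt1, Ehmt2, Nsd1, Suv39h1 and Suv39h2. The rule used no measured value and found 48 of the 27763 gene rows. Of these, 46 are protein-coding, Kdm4dl is an unprocessed pseudogene and Kdm6bos is a transcript antisense to Kdm6b. Bulk RNA was sequenced from splenic natural killer cells of wild-type mice of the C57BL/6 strain, aged 6 weeks, in 3 libraries of the population called cNK and 3 of the population called DN NK. The series title presents DN NK cells as an immature spleen-resident subset whose maturation depends on the transcription factor T-bet. The labels do not give the surface markers used to sort either population, nor do they say whether the replicates of a population came from separate mice. The p-values therefore measure only the spread between these libraries, which may be technical.

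Histone lysine methylation marks chromatin according to the residue that carries it. Methylated H3K4 and H3K36 lie at active promoters and along transcribed genes, and H3K79 methylation by Dot1l also lies on transcribed genes. The higher methylation states of H3K27, H3K9 and H4K20 are found in silent or compacted chromatin. SET-domain enzymes write most of these marks, while the amine oxidases Kdm1a and Kdm1b and the oxygen- and 2-oxoglutarate-dependent Jumonji enzymes erase them. In lymphoid progenitors Ezh2 is known to restrain the production of natural killer cells, and Kdm6a is known to shape their effector programme.

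Estimated counts per library ranged from 79798234 to 89526647, and the histone methylation genes held 0.802 to 0.837% of them in DN NK against 0.550 to 0.591% in cNK. Genes that define natural killer cells were measured in all 6 libraries, at lower levels in DN NK: 14 of 16 rows of that list fell, none rose, and Tbx21, which encodes T-bet, was at 71.1 ± 7.67 FPKM (SD, n = 3) in DN NK and 124 ± 7.23 in cNK. FPKM is the number of fragments scaled to exon length and library depth. Markers of B cells were higher in DN NK. All 8 tested rows of the 14 in that list rose, and their summed level was 44.6 to 58.6 FPKM in DN NK and 3.19 to 3.59 in cNK, where 13 of the 14 lay under 1 FPKM but none was at 0 in every library. All 9 tested rows of the 15 T cell markers rose as well (764 to 803 FPKM summed against 579 to 588), as did all 3 tested plasma cell markers (41.0 to 49.9 against 22.0 to 23.5). All 5 tested markers of innate lymphoid cells of types 2 and 3 other than Ncr1 also rose (60.3 to 65.6 FPKM summed against 17.1 to 18.9), with Ccr6 and Il22 at 0 in every cNK library. Of 34 tested cell cycle genes, 26 fell and 3 rose, with a summed level of 299.6 to 314 FPKM in DN NK and 357.5 to 375.4 in cNK. The other lists held few tested rows: 3 of 4 erythroid and platelet markers rose (43.2 to 61.9 FPKM summed against 34.0 to 41.8), 1 of 2 myeloid markers fell (125 to 137.6 against 188 to 202.3, with S100a8 and S100a9 at 0 in every cNK library) and the 1 stromal and endothelial marker tested rose (14.7 to 15.6 against 10.9 to 12.0). These counts come from the test described below and stand beside 30.8% higher and 30.9% lower of all tested rows. Lists with 4 or fewer tested rows are too small to set against those shares. The part of these marker shifts in the changes reported here was not tested. Some of the sums rest largely on a few genes also read in cNK. Xbp1 of the plasma cell list was at 35.7 FPKM in DN NK and 22.0 in cNK. Trbc1 of the T cell list was at 424 and 359, Itgax of the myeloid list at 124 and 188, and Pecam1 of the stromal list at 14.9 and 11.2. A sum is therefore not a measure of how many cells of a type were present. In bulk samples, fewer cells of a type and less RNA per cell cannot be told apart.

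More of the histone methylation genes were higher than lower in DN NK. The test was edgeR's quasi-likelihood test over the 11690 rows that reached 1 FPKM in 3 or more libraries, at a Benjamini-Hochberg adjusted p of 0.05. This filter kept 47 of the 48 genes. Among them Kdm4d reached it through DN NK alone, and Kdm4dl did not reach it. Kdm4d is included in the counts of genes that rose, although its high DN NK level was what made it testable. Of the 47, 24 rose (51.1%, against 30.8% of all tested rows) and 9 fell (19.1%, against 30.9%), leaving 14 that did not pass. Past the same threshold and with at least a 2-fold change, 6 were higher (12.8%, against 7.9%) and 0 lower (against 4.69%), and at an unadjusted p under 0.05 there were 36 in either direction (76.6%, against 65.8% of all tested rows). The median log2 fold change of DN NK over cNK was 0.32 for the 47 genes and -0.02 for all tested rows. In 26 genes every DN NK library had a higher FPKM than every cNK library (55.3%, against 31% of all tested rows), in 11 every DN NK library was lower (23.4%, against 39.3%), and in 10 the groups overlapped. Of the genes past the threshold, all 33 had groups that did not overlap, as did 97.9% of all rows past it.

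**Figure D1:**
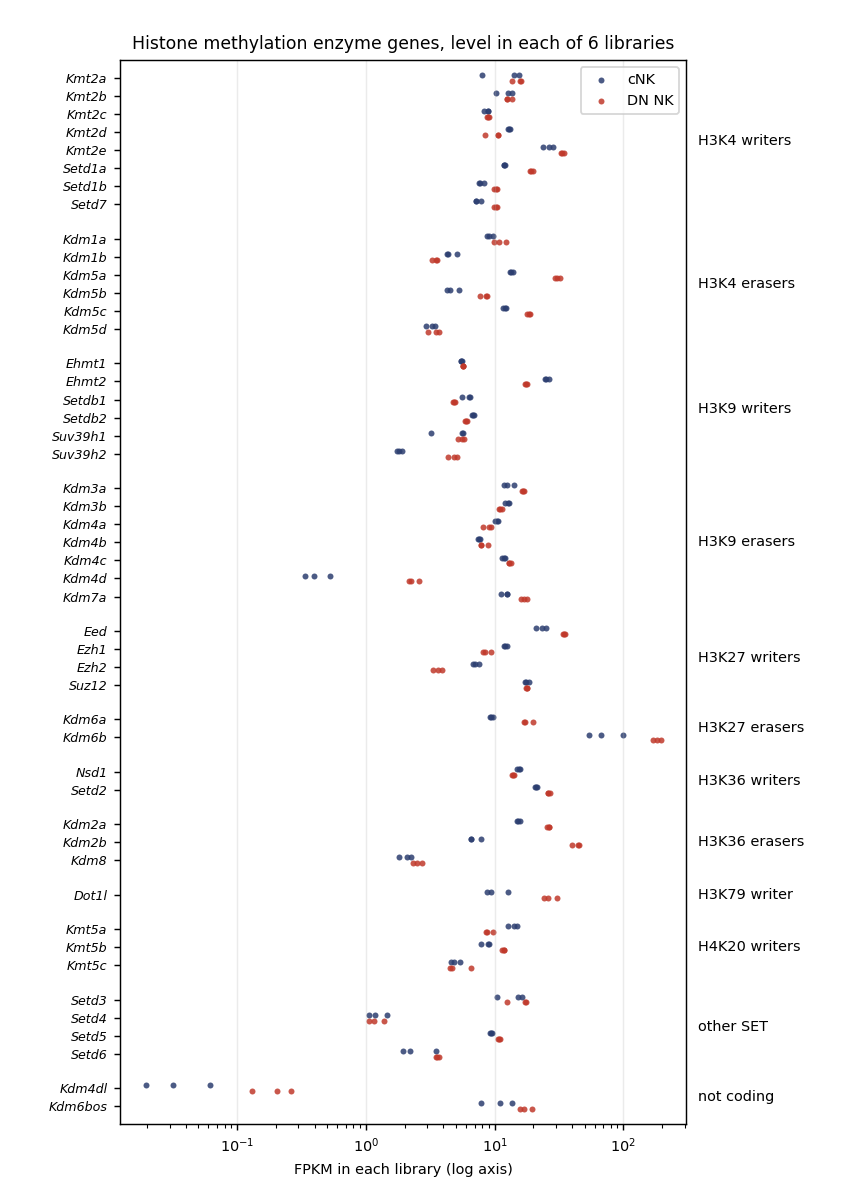
FPKM of each of the 48 genes (horizontal log axis) in the 3 cNK libraries (blue) and the 3 DN NK libraries (red), ordered by the histone residue the enzyme acts on. Kdm6b had the highest levels in both groups (54.1 to 195 FPKM), and Kdm2b and Kdm4d show the widest gaps between the groups.

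By kind of enzyme, 13 of 18 demethylase genes rose (72.2%), 3 fell (16.7%) and 2 did not pass, with a median log2 fold change of 0.49. Of 24 methyltransferase genes and core subunits, 9 rose (37.5%), 6 fell (25%) and 9 did not pass, with a median of 0.14. The shares of the methyltransferase genes lay near the 30.8% higher and 30.9% lower of all tested rows, and the difference between the kinds was not tested. The groups by mark that follow hold at most 8 genes each, and their counts are to be set against the same shares of all rows. The plot of fold changes by mark shows the 4 largest rises, in Kdm2b, Kdm4d, Dot1l and Suv39h2, and the largest falls, in Ezh2 and Kmt5a.

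**Figure D2:**
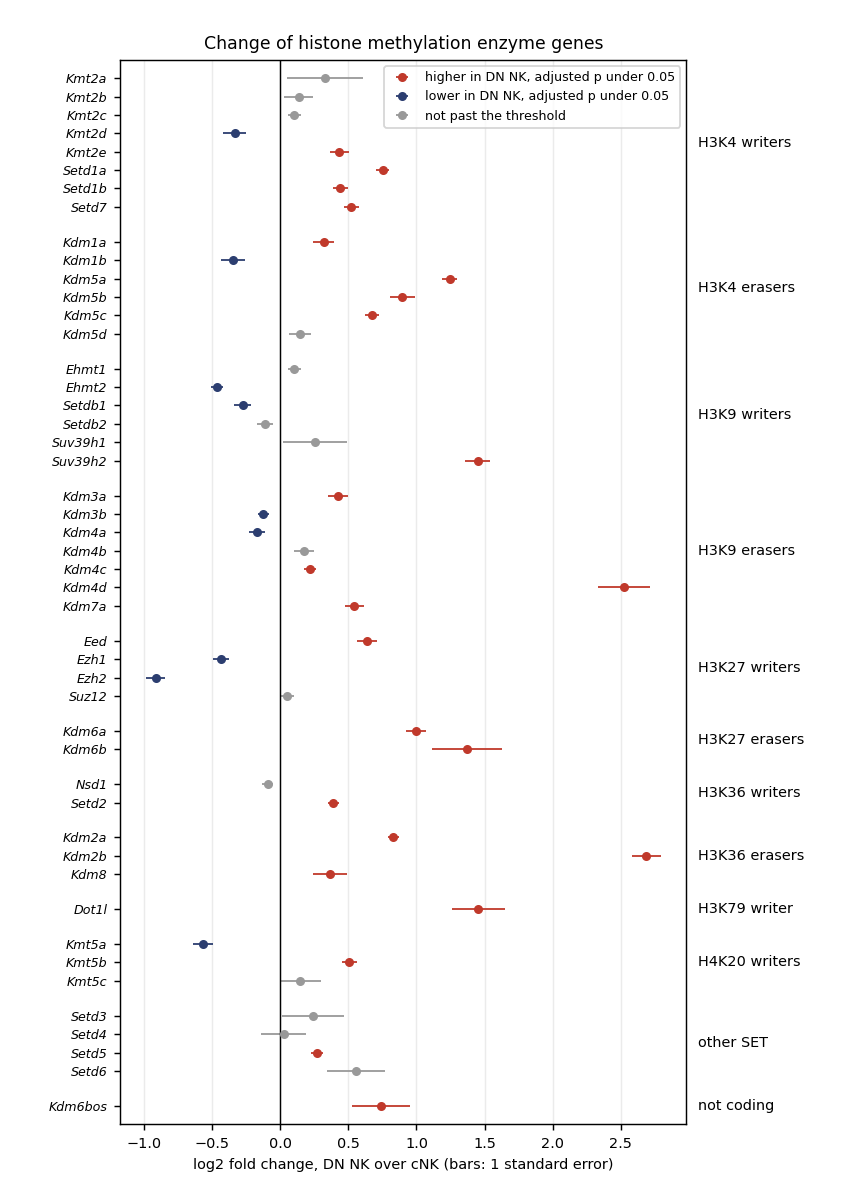
Log2 fold change of DN NK over cNK for the 47 tested genes, with bars of 1 standard error, coloured by whether the edgeR test passed an adjusted p of 0.05. The values run from -0.92 for Ezh2 to 2.69 for Kdm2b, with 24 genes higher (red), 9 lower (blue) and 14 not past the threshold (grey).

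All 3 genes grouped here as H3K36 demethylases rose, and Kdm2b rose by more than any other of the 47 genes. Each gene was placed under 1 mark only. The Kdm4 genes, several of which also act on H3K36, were placed under H3K9, so the 3 are not all the erasers of H3K36. Among them Kdm4c and Kdm4d rose, Kdm4a fell and Kdm4b did not pass. Kdm2b (chr5:122870665-122989823 on GRCm38, minus strand) encodes a Jumonji enzyme that binds unmethylated CpG islands and brings a variant Polycomb repressive complex 1 (PRC1) to them. It was at 44.4, 45.3 and 39.9 FPKM in the DN NK libraries and at 7.87, 6.56 and 6.52 in cNK. Every DN NK library lay more than 5-fold above every cNK library. The log2 fold change was 2.69 (SE 0.10, adjusted p = 1.51e-06, edgeR), a 6.44-fold difference, and its place among the tested genes ordered by FPKM moved from the 51.6th percentile in cNK to the 90.9th in DN NK. Its paralog Kdm2a, which also binds CpG islands, was at 25.5, 26.4 and 26.3 FPKM in DN NK and 15.2, 15.0 and 15.8 in cNK. That gave a log2 fold change of 0.83 (standard error 0.04, adjusted p = 1.47e-06, edgeR). Kdm8, a Jumonji protein reported to act on H3K36, was at 2.32 to 2.72 FPKM against 1.80 to 2.25 (log2 fold change 0.36, adjusted p = 0.0316, edgeR). Its call was lost when cNK replicate 1 or 2, or DN NK replicate 2 or 3, was left out. Of the exon bases of Kdm2b, 5.77% are shared with Rnf34 on the opposite strand, which fell by 0.50 on the log2 scale, and the library kit does not mark strand. The 250 bases before the RefSeq start of Kdm2b (chr5:122989100-122989349, minus strand) are shown because this gene changed most. They hold 27 CpG dinucleotides, given in capitals.
Kdm2b: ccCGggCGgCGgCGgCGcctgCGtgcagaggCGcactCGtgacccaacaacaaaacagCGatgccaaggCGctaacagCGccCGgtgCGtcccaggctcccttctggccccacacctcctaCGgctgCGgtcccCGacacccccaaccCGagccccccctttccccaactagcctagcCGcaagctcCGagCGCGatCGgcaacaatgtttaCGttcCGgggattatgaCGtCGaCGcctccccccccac

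Of the 8 genes grouped as H3K4 writers, 4 rose (50.0%, against 30.8% of all tested rows) and 1 fell (12.5%, against 30.9%). The most abundant of this group per exon length was Kmt2e, a SET protein that binds H3K4me3. Kmt2e is thought to lack catalytic activity, although it is counted here among the 4. It was at 33.7, 34.7 and 32.8 FPKM in DN NK and 28.2, 26.3 and 23.6 in cNK (log2 fold change 0.43, SE 0.07, adjusted p = 8.98e-04, edgeR). Of its exon bases, 9.31% are shared with Srpk2 on the opposite strand, which fell by 0.68 on the log2 scale. Setd1a (chr7:127776670-127800122, plus strand), a catalytic subunit of the COMPASS complexes that write most H3K4me3, was at 20.1, 19.0 and 18.8 FPKM in DN NK and 11.9, 12.1 and 11.9 in cNK. The groups were well apart, with a log2 fold change of 0.75 (standard error 0.05, adjusted p = 5.49e-06, edgeR). Its paralog Setd1b, the alternative subunit of those complexes, had a log2 fold change of 0.44 (adjusted p = 1.37e-04, edgeR), and Setd7, a monomethylase that also acts on proteins other than histones, one of 0.52 (adjusted p = 4.85e-05, edgeR). Kmt2d, which writes H3K4me1 at enhancers, was the gene that fell: 8.36, 10.5 and 10.7 FPKM in DN NK against 12.9, 12.8 and 13.1 in cNK (log2 fold change -0.33, adjusted p = 0.00943, edgeR). Its closest relative Kmt2c did not pass (0.10, SE 0.05), nor did Kmt2b (0.14, SE 0.11). Kmt2a, the MLL1 enzyme that maintains Hox gene expression, was at 14.3 and 15.4 FPKM in cNK replicates 1 and 2 but at 8.05 in cNK replicate 3, against 13.59 to 16.04 in DN NK. Its log2 fold change was 0.33 (SE 0.28) over all libraries and 0.09 without cNK replicate 3. Setd1a shares 51.9% of its exon bases with the gene model AC149222.1 on the same strand, which was listed at a mean of 0.191 FPKM in DN NK and 0.248 in cNK, so the authors' counting could split reads between them.

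Erasers of H3K4 methylation rose in 4 of 6 cases (66.7%, against 30.8% of all tested rows) and fell in 1 (16.7%, against 30.9%). Kdm5a (chr6:120364124-120444574, plus strand), a Jumonji demethylase of H3K4me3 first known as a partner of the retinoblastoma protein, was at 32.3, 30.4 and 29.5 FPKM in DN NK and 13.5, 13.1 and 13.99 in cNK. Its log2 fold change of 1.24 (SE 0.06) was 1 of the 6 beyond 2-fold and had the smallest adjusted p of the 47 genes (8.65e-07, edgeR). The related Kdm5b was at 7.77, 8.57 and 8.77 FPKM against 5.26, 4.25 and 4.53 (log2 fold change 0.90, SE 0.09, adjusted p = 7.46e-05, edgeR). The X-linked Kdm5c was at 18.8, 18.4 and 17.9 FPKM against 12.2, 11.7 and 12.1 (0.67, SE 0.05, adjusted p = 1.02e-05, edgeR). Kdm5d, the Y-linked copy of Kdm5c, was read in all 6 libraries at 2.95 to 3.71 FPKM with overlapping groups, and its log2 fold change of 0.14 (SE 0.08) did not pass. The ratio of Kdm5c to Kdm5d was 4.95 to 6.12 in DN NK and 3.51 to 4.15 in cNK. The amine oxidases went in opposite directions: Kdm1a, the LSD1 enzyme of the CoREST corepressor, had a log2 fold change of 0.32 (adjusted p = 0.00574, edgeR), and Kdm1b, its paralog known from oocyte imprinting, one of -0.34 (adjusted p = 0.00864, edgeR). Kdm1b shares 9.19% of its exon bases with the abundant Dek on the opposite strand, at 79.5 ± 3.36 FPKM (SD, n = 3) in DN NK and 83.8 ± 2.59 in cNK. Summed over the 6 genes, the FPKM of H3K4 erasers was 75.0 to 75.4 in DN NK and 47.1 to 47.3 in cNK. Kdm5a alone made up much of that difference. The sum over H3K4 writers was also higher, at 119.2 to 121.7 FPKM in DN NK and 91.35 to 103.9 in cNK.

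On H3K27 the catalytic subunits of Polycomb repressive complex 2 (PRC2) fell while both demethylases rose. Ezh2 (chr6:47530139-47595341, minus strand), the main H3K27 methyltransferase of dividing cells, was at 3.33, 3.92 and 3.61 FPKM in DN NK and 6.84, 7.03 and 7.51 in cNK. The groups did not overlap, and the log2 fold change was -0.92 (SE 0.07, adjusted p = 1.35e-05, edgeR), a 1.89-fold decrease and the largest among the 9 genes that fell. Ezh1, the alternative catalytic subunit that predominates in resting cells, was at 8.10, 8.36 and 9.36 FPKM against 11.8, 12.6 and 12.1 (log2 fold change -0.44, SE 0.06, adjusted p = 2.49e-04, edgeR). The ratio of Ezh1 to Ezh2 FPKM was 2.43, 2.13 and 2.60 in DN NK and 1.72, 1.79 and 1.61 in cNK. The other core subunits did not follow them. Eed (chr7:89954654-89980983, minus strand), which binds H3K27me3 and stimulates the enzyme, was at 35.2, 33.9 and 34.9 FPKM in DN NK and 25.2, 21.0 and 23.5 in cNK (log2 fold change 0.64, SE 0.07, adjusted p = 1.10e-04, edgeR). Suz12, the scaffold subunit, lay between 17.2 and 18.4 FPKM in all 6 libraries, with a log2 fold change of 0.05 (standard error 0.05). The cell cycle genes that moved with Ezh2 included Mki67, which marks dividing cells, at 7.996 ± 0.464 FPKM (SD, n = 3) in DN NK and 16.6 ± 0.631 in cNK; the part of cell division in the Ezh2 difference was not tested.

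Both H3K27 demethylases rose, and Kdm6b was the most abundant of the 48 genes per exon length. Kdm6b (chr11:69398508-69413675, minus strand), the inducible JMJD3 enzyme, was at 195, 183 and 171 FPKM in DN NK and 99.5, 54.1 and 67.6 in cNK. The groups were apart, although cNK replicate 1 stood above the other two cNK libraries. The log2 fold change was 1.37 (SE 0.26, adjusted p = 0.00687, edgeR), and 1.66 without cNK replicate 1. Kdm6a (chrX:18162575-18279936, plus strand), the UTX enzyme that also works inside the Kmt2c and Kmt2d complexes, was at 19.95, 17.1 and 17.03 FPKM against 9.73, 9.26 and 9.32. That gave a log2 fold change of 0.996 (standard error 0.08, adjusted p = 1.16e-05, edgeR). Its Y-linked relative Uty is not among the 48 genes, and the ratio of Kdm6a to Uty was 8.75 to 11.4 in DN NK and 5.81 to 6.55 in cNK. The antisense Kdm6bos (chr11:69401513-69402700, plus strand) had a log2 fold change of 0.74 (standard error 0.21, adjusted p = 0.0199, edgeR), a call lost without cNK replicate 2 or DN NK replicate 1. It shares 34.1% of its exon bases with Kdm6b, and since the kit does not mark strand, reads there cannot be assigned to either gene.

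Of the 6 H3K9 writers, 1 rose (16.7%, against 30.8% of all tested rows) and 2 fell (33.3%, near the 30.9% of all rows). Suv39h2 (chr2:3455815-3475031, minus strand), which writes H3K9me3 in pericentric heterochromatin, was at 5.10, 4.38 and 4.82 FPKM in DN NK and 1.91, 1.74 and 1.81 in cNK. Every DN NK library was more than 2-fold above every cNK library, with a log2 fold change of 1.45 (standard error 0.09, adjusted p = 5.22e-06, edgeR). Suv39h2 shares 8.1% of its exon bases with Dclre1c on the opposite strand, a DNA repair nuclease gene that rose by a similar amount (4.54 ± 0.105 FPKM against 2.00 ± 0.0751, SD, n = 3, log2 fold change 1.24), and without strand the shared reads cannot be assigned. Its paralog Suv39h1, which has the same activity, was at 5.77, 5.64 and 5.17 FPKM in DN NK and 5.69, 5.61 and 3.21 in cNK. The low value of cNK replicate 3 carried its log2 fold change of 0.25 (SE 0.24), which was 0.03 without that library. The most abundant of the H3K9 writers was Ehmt2, the G9a enzyme that mono- and dimethylates H3K9 in euchromatin. It was at 17.4, 17.6 and 17.9 FPKM against 24.9, 24.8 and 26.5 (log2 fold change -0.47, SE 0.04, adjusted p = 3.78e-05, edgeR). Its partner in the same heterodimer, Ehmt1, did not pass (0.10, SE 0.05), and the ratio of Ehmt2 to Ehmt1 was 3.07 to 3.16 in DN NK against 4.43 to 4.84 in cNK. Setdb1, which silences endogenous retroviruses, fell (-0.28, adjusted p = 0.00521, edgeR), whereas Setdb2 had a log2 fold change of -0.11 (standard error 0.06) and did not pass.

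Among 7 erasers of H3K9 methylation, 4 rose (57.1%, against 30.8% of all tested rows) and 2 fell (28.6%, near the 30.9% of all rows). Kdm4d (chr9:14462548-14500482, minus strand), a short Jumonji enzyme best known from testis, was at 2.58, 2.25 and 2.18 FPKM in DN NK and 0.395, 0.336 and 0.531 in cNK. The cNK values rest on 97 to 148 estimated counts per library, at about 3.77 estimated counts for a read pair. The log2 fold change was 2.53 (SE 0.19, adjusted p = 1.15e-05, edgeR), a 5.76-fold difference from a low level. Kdm4d was tested only because its DN NK level reached the filter, so this p-value is no independent support for the rise. With no filter its log2 fold change was 2.46 (SE 0.19). The neighbouring pseudogene Kdm4dl (chr9:14450836-14452022, minus strand) was listed at 0.131 to 0.263 FPKM in DN NK and 0.0196 to 0.0612 in cNK, under the filter; its sequence relation to Kdm4d means that the authors' counting could share reads between the 2 rows. The remaining changes were smaller. Kdm7a, which acts on H3K9 and H3K27, was at 17.9, 15.9 and 16.9 FPKM against 12.5, 11.3 and 12.5 (log2 fold change 0.55, SE 0.07, adjusted p = 1.59e-04, edgeR). Kdm3a, a hypoxia-inducible enzyme that removes H3K9me1 and H3K9me2, had a log2 fold change of 0.43 (adjusted p = 9.42e-04, edgeR), and Kdm4c one of 0.22 (adjusted p = 0.00284, edgeR). Kdm3b (-0.13, adjusted p = 0.0276, edgeR) and Kdm4a (-0.17, adjusted p = 0.0317, edgeR) fell slightly. The Kdm3b call was lost without cNK replicates 2 or 3 or DN NK replicate 2, and the Kdm4a call without any of the 3 cNK libraries or DN NK replicates 1 or 3. Kdm4b did not pass (0.18, SE 0.07). The 250 bases before the RefSeq start of Kdm4d (chr9:14500483-14500732, minus strand) are shown because the gene goes from under 1 FPKM to above it. They hold 14 CpG dinucleotides, in capitals, fewer than the 27 of Kdm2b.
Kdm4d: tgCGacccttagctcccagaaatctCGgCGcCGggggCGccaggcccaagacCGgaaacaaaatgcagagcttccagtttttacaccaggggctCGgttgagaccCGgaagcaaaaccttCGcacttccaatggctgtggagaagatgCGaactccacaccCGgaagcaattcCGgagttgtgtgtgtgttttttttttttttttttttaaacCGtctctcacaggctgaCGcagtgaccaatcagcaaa

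Dot1l (chr10:80755206-80795461, plus strand), the H3K79 methyltransferase and the methyltransferase of this group without a SET domain, rose. It was at 30.8, 26.0 and 24.4 FPKM in DN NK and 12.8, 8.66 and 9.42 in cNK. The lowest DN NK library was nearly 2-fold above the highest cNK library, and the log2 fold change was 1.46 (SE 0.20, adjusted p = 0.00176, edgeR). On H3K36, Setd2, which writes H3K36me3 behind RNA polymerase II, was at 26.2, 26.1 and 26.7 FPKM against 21.0, 20.6 and 21.3 (log2 fold change 0.39, SE 0.04, adjusted p = 5.45e-05, edgeR). Nsd1, which writes H3K36me2, was at 13.6 to 14.1 FPKM in DN NK and 15.0 to 15.7 in cNK. Its groups did not overlap, but its log2 fold change of -0.09 (SE 0.04) did not pass. On H4K20 the stages were split. Kmt5a, which writes H4K20me1 and is regulated through the cell cycle, was at 8.64, 9.74 and 8.76 FPKM against 12.6, 14.2 and 15.1 (log2 fold change -0.57, SE 0.08, adjusted p = 2.44e-04, edgeR). Kmt5b, which extends that mark, was at 11.4, 11.9 and 11.9 FPKM against 7.81, 9.05 and 8.97 (0.51, SE 0.06, adjusted p = 8.57e-05, edgeR), and Kmt5c, with the same activity, did not pass (0.15, SE 0.15).

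The remaining SET genes act mainly outside histones or have debated activity. Setd5 rose (log2 fold change 0.27, SE 0.04, adjusted p = 6.40e-04, edgeR). Setd3, an actin histidine methyltransferase and the most abundant of these genes per exon length, was at 17.6, 17.3 and 12.5 FPKM in DN NK and 10.4, 15.3 and 16.3 in cNK, with overlapping groups (0.24, SE 0.23). Setd6, which methylates the NF-kappaB subunit RelA, was at 3.72, 3.55 and 3.53 FPKM against 1.93, 2.19 and 3.54. The library cNK replicate 3 reached the DN NK level, and the log2 fold change of 0.56 (SE 0.21, adjusted p = 0.0516, edgeR) became 0.86 (adjusted p = 0.00104) without it. Setd4 was low in all libraries, at 1.06 to 1.45 FPKM.

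**Figure D3:**
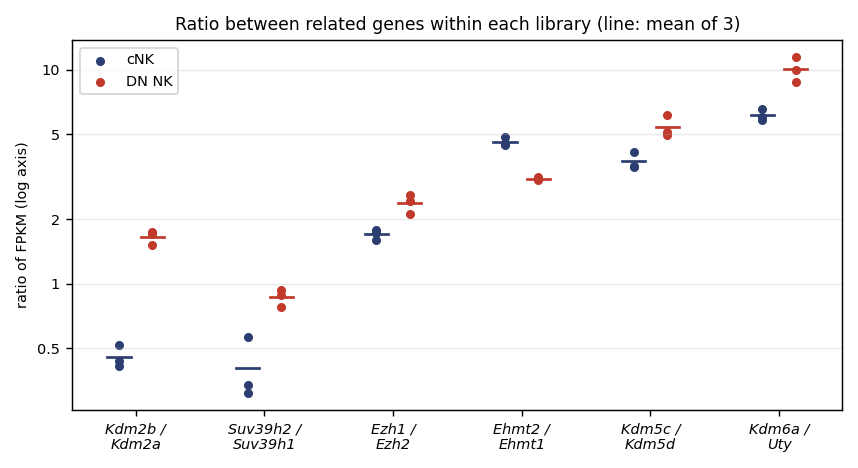
Ratio of FPKM between related genes within each library (vertical log axis) for 3 cNK (blue) and 3 DN NK (red) libraries, with a line at each group's mean. The groups do not overlap in any of the 6 pairs plotted. The ratio of Kdm6b to Kdm6a, for which they overlapped, is not plotted. The ratio of Kdm2b to Kdm2a moved most, from 0.414 to 0.519 in cNK to 1.52 to 1.74 in DN NK.

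Ratios were computed for 8 pairs of related genes, which were chosen with earlier results of these data known. A ratio restates the separate changes of its genes, so the number of pairs whose groups lay apart is not a further result. Other pairs were not computed. For single genes, the groups did not overlap in 31% (higher in DN NK) and 39.3% (lower) of all tested rows, and no such share was computed for ratios. The order of Kdm2b and Kdm2a was reversed, with ratios of 1.74, 1.72 and 1.52 in DN NK and 0.519, 0.438 and 0.414 in cNK. The ratio of Suv39h2 to Suv39h1 was 0.884, 0.778 and 0.932 in DN NK and 0.335, 0.31 and 0.565 in cNK, where the highest value came from the low Suv39h1 of cNK replicate 3. For Kdm6b and Kdm6a the groups overlapped: the ratio was 9.77 to 10.7 in DN NK and 5.85 to 10.2 in cNK. In the other 7 of 8 pairs computed the groups were apart. The plot of ratios within libraries shows 6 of these, and in the remaining pair the ratio of Setd1a to Setd1b was 1.78 to 2.02 in DN NK and 1.44 to 1.59 in cNK. FPKM here divides by the merged exon length of all annotated transcripts, so a ratio between genes depends on that length, while its change between libraries does not. An exact permutation test of 3 against 3 libraries cannot go below p = 0.10, so the ratios are given as values without a test.

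RefSeq promoter windows on GRCm38.p6, from 250 bases before to 50 after the start, matched 37 of the 48 genes. Their median CpG count was 26 and their median GC content 62.7%, against 7 and 52.7% over all 32851 windows. The median observed-to-expected CpG ratio was 0.878 for the 37 and 0.384 for all windows. The cell cycle element TTTGAA, searched on both strands, was in 6 of 37 windows (16.2%) and in 17.9% of all windows. T-box letters (AGGTGTGA or TCACACCT) were in 0 of 37 and in 1.28% of all windows. E2F letters (TTTCGCGC, TTTGGCGC or TTTCCCGC, both strands) were in 3 windows (8.11%) against 1.84% of all windows. These 3 belong to Ezh2, Suz12 and Kmt5c, of which Ezh2 fell and the other 2 did not pass. The matches are shown in capitals within 30 bases on the strand of each gene, at chr6:47595009-47595038 (minus strand) for Ezh2, chr11:79992876-79992905 (plus strand) for Suz12 and chr7:4740011-4740040 (plus strand) for Kmt5c, where the letters read on the opposite strand. A match is a run of letters and not evidence of binding. Each of the E2F words holds a CpG, and the 37 windows hold more CpG than all windows, which were not matched for base composition. The part of base composition in the E2F share was not tested.
Ezh2: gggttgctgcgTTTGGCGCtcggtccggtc
Suz12: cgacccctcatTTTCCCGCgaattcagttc
Kmt5c: ggccagaagagGCGGGAAAaagagagcaat

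The 250 bases before the RefSeq start of Ezh2 (chr6:47595031-47595280, minus strand) are shown for comparison with Kdm2b, since these genes had the largest fall and the largest rise. They hold 23 CpG dinucleotides, in capitals, close to the 27 of Kdm2b.
Ezh2 upstream: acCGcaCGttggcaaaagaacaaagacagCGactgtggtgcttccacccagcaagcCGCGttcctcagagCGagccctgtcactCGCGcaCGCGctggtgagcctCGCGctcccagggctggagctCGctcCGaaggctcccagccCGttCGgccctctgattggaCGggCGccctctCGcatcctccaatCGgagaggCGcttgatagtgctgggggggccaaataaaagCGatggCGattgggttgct

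Many of these enzymes have long transcripts, and long genes as a whole were shifted towards DN NK. Over rows of more than 6 kb of merged exon length, 39.7% of 3045 were higher and 28.6% lower, with a median log2 fold change of 0.08. Between 1 and 2 kb the median was -0.12. Of the 29 histone methylation genes above 6 kb, 17 were higher (58.6%) and 5 lower (17.2%), with a median of 0.43. Of the 10 between 4.5 and 6 kb, 2 were higher and 4 lower, against 32.3% and 31.8% of all rows of that length. The part of length in the changes was not tested.

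**Figure D4:**
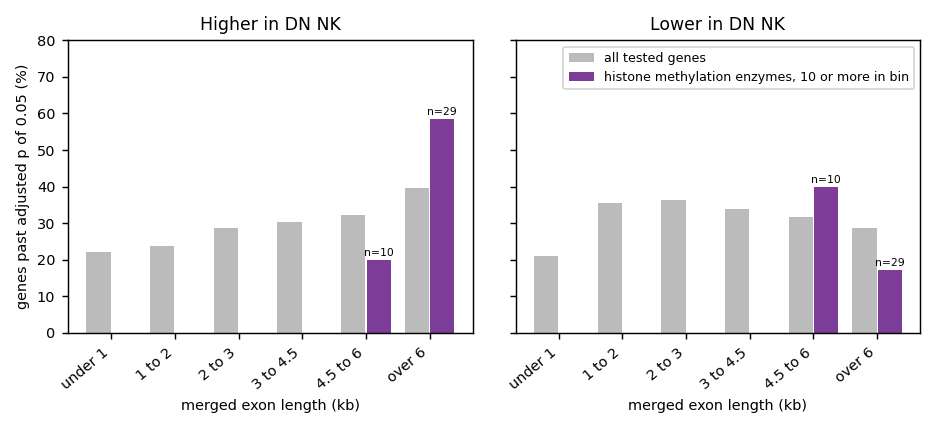
Share of genes past an adjusted p of 0.05 (vertical axis, percent) that were higher (left) or lower (right) in DN NK, by merged exon length in kb, for all tested genes (grey) and for the histone methylation genes in bins with at least 10 of them (purple). Above 6 kb, 58.6% of the 29 histone methylation genes were higher against 39.7% of all genes.

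The partners of these enzymes were read from lists of complex subunits. Among 7 genes for partners of DOT1L, 3 rose and 1 fell, with a median log2 fold change of 0.0. The 3 that rose were Aff1, Aff4 and Aff3 (0.32). Mllt1 fell (-0.29), and Mllt10, Mllt3 and Mllt6 did not pass. Aff1, a scaffold of the super elongation complex, was at 57.2 ± 1.15 FPKM (SD, n = 3) in DN NK and 15.1 ± 0.873 in cNK, with a log2 fold change of 1.98 (adjusted p = 1.48e-07, edgeR), and its relative Aff4 had one of 1.29 (adjusted p = 1.71e-06, edgeR). Of 10 histone-binding and accessory subunits of PRC2, 5 rose and 2 fell. The largest changes were those of Epop (1.04), Mtf2 (0.99) and Jarid2 (0.73), of which Mtf2 and Jarid2 help recruit the complex to chromatin. Of 20 PRC1 genes, 8 rose and 2 fell, led by Bcorl1 (-0.78), Scmh1 (0.72) and Phc2 (0.67). Of 16 COMPASS subunits, 4 were higher and 8 lower, with a median of -0.19. Psip1, which ties MLL to chromatin, fell by 0.88 on the log2 scale, and Dpy30, a shared core subunit, fell by 0.59. For LSD1 partners, 3 of 9 rose and 1 fell, with Rcor1, the CoREST scaffold, at 0.82. Of 15 partners and readers of H3K9 methylation, 5 rose and 6 fell, among them the readers Cdyl2 (1.21) and Cbx5, which encodes HP1 alpha (-0.83). These counts stand beside 30.8% higher and 30.9% lower of all tested rows.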

How the data were processed

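Spleen natural killer cell RNA was extracted with Trizol, selected for poly(A) from 5 µg, made into libraries with a TruSeq v2 kit and sequenced as paired reads of 150 bp, per the labels' protocols. That kit does not mark strand. HISAT, StringTie and edgeR are named in the submitters' processing notes, with the build GRCm38 (mm10); versions are not given in the sources used here. The deposited table holds, per the file headers, FPKM and a count in each of 6 libraries for 27763 gene rows. The deposited counts behave as estimated counts made by the authors from coverage: 88.1 to 89.3% of low values per library equal FPKM times a length times a constant, and a read pair is worth about 3.77 of them, so the depth in fragments is approximate. That length was the merged exon length of all transcripts in GENCODE M21, within 1%, for 85.0% of tested rows and 44 of the 48 genes described. Counts were used as deposited, being already whole numbers. The 11690 rows that reached 1 FPKM in 3 or more of 6 libraries were tested with edgeR 4.0.16 in R 4.3.3: TMM factors (0.973 to 1.03), robust dispersion, the quasi-likelihood test, 2-sided, no covariates, and p-values adjusted by Benjamini-Hochberg across those rows. Standard errors were derived from the F statistic. The procedure was tested on simulated data. The alternatives were DESeq2 1.42.0, median-ratio and upper quartile scaling, no filter, a mean of at least 5 FPKM, counts as read pairs, limma 3.58.1 on log2(FPKM + 1) and log2(FPKM + 0.1), a replicate block and leaving out each library. The genes described, the partner and marker lists and the naming rule were chosen with earlier results of these data known. Every gene of the rule could be named, with full statistics for those past the threshold with a log2 change of at least 0.5 and for the most abundant gene of each mark. Of a partner list, up to 3 of the largest changes past the threshold could be named. For the DOT1L partners all tested genes were named. Promoter sequences are from RefSeq on GRCm38.p6. No protein sequences were used here.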

Additional observations from a re-analysis of the deposited data

How the results depend on the processing

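Across the alternatives other than a stricter filter, 22 to 26 of the histone methylation genes were called higher and 7 to 11 lower, against 24 and 9 in the main test. Over all rows the calls were balanced in the main test (3602 higher, 3613 lower) but not with upper quartile scaling (3104 and 4373) or with limma at pseudocounts 1 (3268 and 4098) and 0.1 (3251 and 4079). Under a stricter filter, a mean of 5 FPKM or more, 40 of the histone methylation genes were tested, of which 21 were higher and 8 lower, and the calls over all rows went to 2278 higher and 2336 lower, since fewer rows were tested. The 4 genes whose call was lost under an alternative that tested them were Kdm8, Kdm4a, Kdm3b and Kdm6bos. Kdm8 lost it with upper quartile scaling, with no filter and with both limma fits; the cause was not tested. Setd6, Kdm4b, Nsd1 and Setdb2 gained a call under some alternatives. Uncalled values changed sign for 3 genes, and the cause was not tested. Suz12 was at -0.034 with upper quartile scaling, -0.013 with no filter, and -0.009 and -0.010 with limma at pseudocounts 1 and 0.1. Setd4 was at -0.060, -0.039, -0.020 and -0.033 in the same order, and from -0.096 to 0.173 when each library was left out. Kmt5c ranged from -0.052 to 0.253 when each library was left out. Without the filter, Kdm4dl was at a log2 fold change of 2.23 (standard error 0.80, adjusted p = 0.0519, edgeR).

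Deviations from the group means correlated between same-numbered libraries at 0.046, 0.036 and 0.162. The last was the highest of any cNK and DN NK library, whereas cNK replicate 1 correlated best with DN NK replicate 2 (0.056). The labels do not call the replicate numbers pairs, and the main test did not take them as such. With the replicate block, 26 genes were higher and 9 lower, and the calls over all rows were 3585 and 3637. The block lowered some standard errors (Dot1l from 0.196 to 0.071) and raised others (Setd3 from 0.226 to 0.288). Whether same-numbered libraries share a batch was not tested. Depth limits Kdm4d and Kdm4dl most, and 3 libraries a group leave standard errors of 0.04 to 0.28 on the log2 scale.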

Other observations

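Genes that supply or act beside histone lysine methylation changed in both directions. Of 11 tested genes for methyl donor and cofactor metabolism, 3 rose and 5 fell (edgeR, adjusted p of 0.05), where 30.8% of all tested rows rose and 30.9% fell. The counts of this list and of those that follow rest on at most 11 genes, and several lie near these shares. Ahcyl2 had a log2 fold change of 2.14 (adjusted p = 0.0236), but at 2.30 ± 1.62 FPKM (SD, n = 3) its DN NK libraries were far apart. Idh1, which makes 2-oxoglutarate, the cofactor of the Jumonji enzymes, fell by 0.84 on the log2 scale. Of 10 protein arginine methyltransferase genes, none rose and 3 fell: Prmt2 by 0.64, Prmt6 by 0.43 and Prmt5 by 0.35.

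Demethylases outside the symbol rule also varied. Of 7 tested, 3 rose and 2 fell, led by Jmjd1c, a relative of Kdm3a, at 26.7 ± 1.75 FPKM in DN NK and 11.8 ± 1.15 in cNK (SD, n = 3, log2 fold change 1.24). Riox2 fell by 0.84 and Phf8, which removes H3K9me2, by 0.45. Of 10 further lysine methyltransferase genes, 4 rose and 2 fell, led by Smyd5 (1.16), Smyd4 (-0.75) and Smyd2 (0.75).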
